A study of Mus musculus with 40 samples.

Results

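The genes described here are 10 transcripts listed as markers of the 2 classes of striatal medium spiny neurons (MSNs). The values of *Eya1* went another way than those of most of the others, as given below, and its listing was not tested. They are *Drd1*, *Tac1*, *Pdyn*, *Eya1* and *Isl1* for the direct pathway and *Drd2*, *Penk*, *Adora2a*, *Gpr6* and *Gpr52* for the indirect pathway. They were chosen by name, as 10 of the 24060 rows of the deposited count table, with no threshold on any value. *Drd1* is listed there under its synonym *Drd1a*. All 10 passed the filter on low counts in every comparison, and the lowest count of any of them in any library was 217 (*Eya1*).

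The study asked mainly which proteins striatal astrocytes and neurons hold, and also measured their RNA. It further asked how loss of SAPAP3 (encoded by *Dlgap3*), a postsynaptic scaffold protein, alters the striatum in a mouse model of obsessive-compulsive disorder. For the RNA of a cell type it used RiboTag. There an adeno-associated virus (AAV) makes a haemagglutinin-tagged ribosomal protein, RPL22, in 1 cell type, and tagged ribosomes are then immunoprecipitated (IP) with their RNA. Some of each cleared lysate was kept as input, with the RNA of every striatal cell type in it. The 40 libraries fall into 10 groups of 4.

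Astrocyte IP and its input came from C57/BL6NTac mice, labelled Control, whose virus the labels do not name. They were taken as the astrocyte RiboTag (GfaABC1D promoter) from their strain and the study's methods. Neuron IP and its input came from C57/BL6NTac WT mice with the hSYN1 promoter, which drives expression in neurons of every class and not in MSNs alone. Both viruses were injected into the dorsal striatum at 6 weeks of age. The SAPAP3 cohort gave IP and input of C57/BL6J WT mice and of C57/BL6J-Dlgap3 KO mice (group Sapap3KO), injected at 4.5 months of age. The KO is constitutive and so is present in every cell. No source used here names the cell type of that cohort's IP, and none is given to it below. Bulk striatal RNA came from WT and Sapap3KO mice, with C57/BL6NTac as the labelled strain of both genotypes and no virus or age given.

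Direct pathway MSNs carry the D1 dopamine receptor, which raises cyclic AMP, and project to the substantia nigra pars reticulata and the internal pallidum, where their activity favours movement. Indirect pathway MSNs carry the D2 receptor, which lowers cyclic AMP, together with the adenosine A2a receptor, which raises it, and project to the external pallidum, where their activity restrains movement. The classes also differ in their neuropeptides, with substance P and dynorphin in the first and enkephalin in the second. Cyclic AMP acts on transcription in part through CREB, which binds the cyclic AMP response element (CRE).

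Positions follow RefSeq on GRCm38.p6, which mm10 is built on. *Drd1* lies on the minus strand at chr13:54051183-54055658 and *Drd2* on the plus strand at chr9:49340360-49408177. *Tac1* lies at chr6:7555061-7562978 (plus), *Penk* at chr4:4133536-4138815 (minus) and *Pdyn* at chr2:129686549-129699938 (minus). *Adora2a* lies at chr10:75316877-75334792 (plus) and *Gpr6* at chr10:41069977-41072290 (minus). *Gpr52* (chr1:160574717-160579704, minus) lies within an intron of *Rabgap1l* on the same strand, so reads of unspliced *Rabgap1l* RNA could not be told apart from its own. *Eya1* lies at chr1:14168953-14311035 (minus) and *Isl1* at chr13:116298270-116309688 (minus). *Penk* shares chromosome 4 with *Dlgap3* but lies 123 Mb from it.

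The 250 bases before the start of 4 of these genes are shown, as several of the receptors encoded by the 10 act on cyclic AMP. Any part of a motif in the levels was not tested. Sequences are RefSeq's on GRCm38.p6, written 5′ to 3′ on the gene's strand. Capitals mark the full CRE (TGACGTCA) or the shorter core of the CRE (TGACG), which reads CGTCA where it lies on the opposite strand. The windows are chr13:54055659-54055908 for *Drd1*, chr6:7554811-7555060 for *Tac1*, chr13:116309689-116309938 for *Isl1* and chr10:41072291-41072540 for *Gpr6*.
Drd1: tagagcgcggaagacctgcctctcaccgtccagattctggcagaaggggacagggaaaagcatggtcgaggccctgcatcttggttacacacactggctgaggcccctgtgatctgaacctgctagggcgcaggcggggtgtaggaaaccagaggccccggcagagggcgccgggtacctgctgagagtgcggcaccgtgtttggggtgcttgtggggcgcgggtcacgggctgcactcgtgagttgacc
Tac1: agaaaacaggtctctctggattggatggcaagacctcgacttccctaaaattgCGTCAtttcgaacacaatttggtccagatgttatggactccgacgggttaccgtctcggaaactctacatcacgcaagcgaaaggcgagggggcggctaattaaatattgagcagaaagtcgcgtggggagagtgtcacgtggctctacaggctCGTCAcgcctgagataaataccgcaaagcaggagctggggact
Isl1: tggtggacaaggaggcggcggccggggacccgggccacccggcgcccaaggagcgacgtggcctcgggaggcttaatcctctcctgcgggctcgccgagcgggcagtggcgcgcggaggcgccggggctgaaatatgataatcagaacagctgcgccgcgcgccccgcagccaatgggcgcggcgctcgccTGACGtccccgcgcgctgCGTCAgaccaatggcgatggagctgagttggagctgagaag
Gpr6: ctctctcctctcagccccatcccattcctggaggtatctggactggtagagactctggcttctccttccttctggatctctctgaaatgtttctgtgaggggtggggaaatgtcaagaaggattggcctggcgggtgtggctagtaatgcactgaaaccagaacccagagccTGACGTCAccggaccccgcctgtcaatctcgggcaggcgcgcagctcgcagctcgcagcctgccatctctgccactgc
*Gpr6* held a full CRE 78 bases before its start, a motif present, on either strand, in 508 of 32851 promoter windows of this length (1.55%). *Tac1* held the core 197 and 43 bases before its start, both on the opposite strand. *Isl1* held it 59 bases before its start on the gene's strand and 41 bases before on the other. The core was in 17.8% of all windows, and every full CRE also contains it. *Drd1*, *Drd2* and *Pdyn* held neither in the windows searched. The *Drd2* window, not printed, precedes another transcript start than the outermost start of the gene. *Eya1*, *Penk*, *Adora2a* and *Gpr52* were not analysed for motifs here. A match is a match of letters and not a binding site.

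The libraries held 23438112 to 84109800 counted reads, with the fewest in the SAPAP3 WT inputs and the most in the neuron IPs. *Dlgap3*, the deleted gene, had 421 ± 63.0 CPM (counts scaled to the library's total count; mean ± SD, n = 4) in SAPAP3 WT input and 180 ± 17.0 in KO input, so reads were still counted on it in the KO. The ranges of 10 astrocyte markers, summed, were 3134 to 3377 CPM in astrocyte cohort input and 29058 to 31355 in its IP, and all 10 rose in that IP. Those 10 also rose in both SAPAP3 IPs. In neuron IP 7 of them fell and 1 rose (4 and 3 with scaling to ribosomal protein genes), whereas all 5 pan-neuronal markers rose (3 with scaling by total counts). The sexes were not balanced. Over 1000 counts of *Xist* were found in all 8 neuron cohort libraries, in no astrocyte cohort library, and in 1 mouse of each SAPAP3 genotype and 1 bulk WT library. A WT mouse of the SAPAP3 cohort, replicate 1, stood apart from the other WT mice in both its input and its IP, and is described with the genotypes. One bulk WT and 1 bulk KO library carry the same animal number in the labels.

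Across the 10 groups the enkephalin precursor gene *Penk* was the most abundant of the 10 genes per length and *Eya1*, which encodes a transcriptional coactivator and phosphatase, the least. In astrocyte cohort input, *Penk* had 811 FPKM (CPM per kilobase of merged exons), *Tac1*, the substance P precursor gene, 157 FPKM and *Drd1* 149 FPKM. *Adora2a* followed with 137 FPKM, and *Drd2*, *Gpr6* and *Pdyn* with 53.8, 52.8 and 51.8 FPKM. *Gpr52* stood at 17.8 FPKM, *Isl1* at 6.57 FPKM and *Eya1* at 1.66 FPKM. The ranges of *Tac1* and *Drd1* overlapped there, as did those of *Drd2* and *Gpr6* and of *Gpr6* and *Pdyn*, and the other neighbours in the order did not. In neuron IP the order was nearly the same, with *Penk* at 817 FPKM and *Eya1* at 1.33 FPKM, but *Drd2* (23.9 to 29.9 FPKM) stood below *Pdyn* (46.8 FPKM) and *Gpr6* (42.0 FPKM), whose ranges it did not overlap.

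The inputs of the cohorts differed from each other. *Drd1* had 522 to 540 CPM in the 4 astrocyte cohort inputs, 226 to 316 in the neuron cohort inputs, 276 to 482 in SAPAP3 WT input and 251 to 301 in KO input. *Drd2* had 150 to 153 CPM in astrocyte cohort input and 53.3 to 68.0 in neuron cohort input. The summed level of 3 markers of cortical glutamatergic neurons (*Slc17a7*, *Neurod6* and *Emx1*) was 63.7 to 94.2 CPM in astrocyte cohort input and 614 to 812 CPM in neuron cohort input. Its part in the difference was not tested, and cohort, sex and depth cannot be told apart here. In tissue RNA of this kind, fewer cells of a type and less RNA per cell cannot be told apart either.

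**Figure D1:**
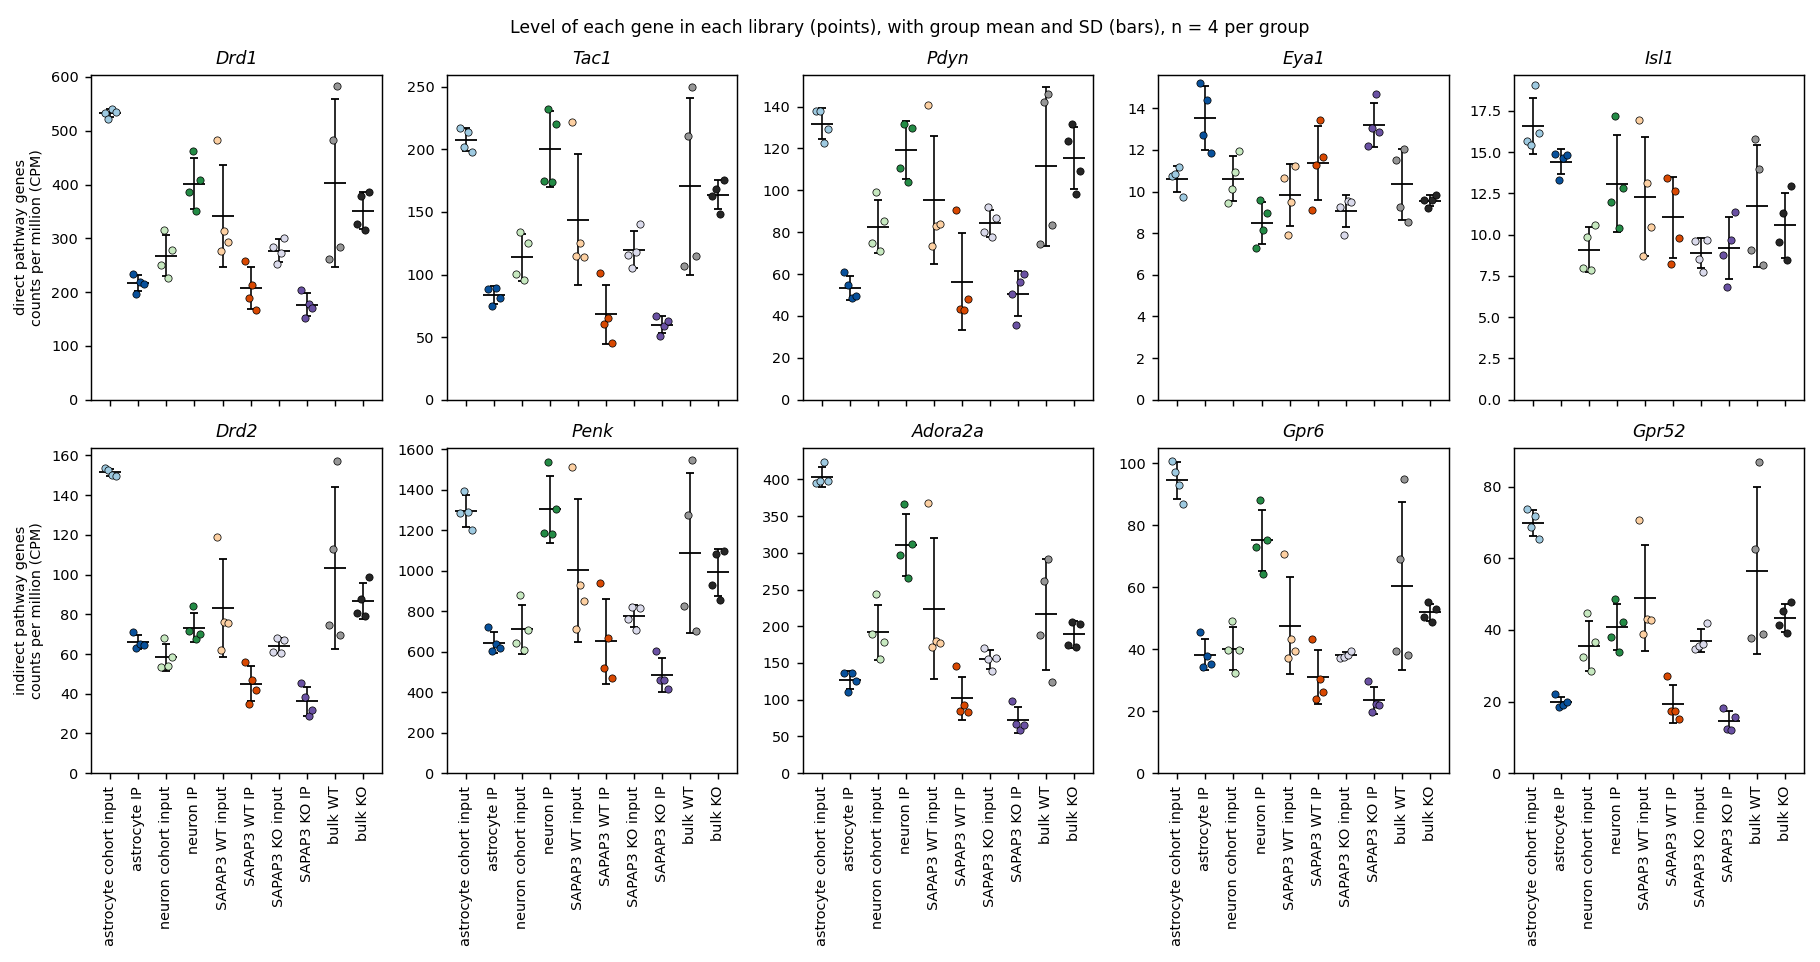
Level of each of the 10 genes in CPM (vertical axes, linear from 0, a scale for each gene) in the 10 groups, with 1 point per library and the mean and SD of 4 libraries as bars. For all genes but *Eya1* and *Isl1* the astrocyte IP libraries lie far below their inputs, and bulk WT is widely spread, as with *Drd1* (261 to 583 CPM).

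With TMM-scaled library sizes (trimmed mean of M-values), astrocyte IP held less of 8 of the 10 genes than its input and more of *Eya1*, whereas scaling to ribosomal protein genes turned 6 of the 8 falls above 0. Over all genes tested, 41.2% were called lower and 39.2% higher (edgeR's quasi-likelihood test, adjusted p under 0.05). The fall was close to 2-fold for most, and 6 genes fell by more than 2-fold (13.5% of all genes). The median log2(FC) of the 10 was -1.08, against -0.025 over all genes tested, and both the direct and the indirect pathway genes had a median of -1.08.

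Among the dopamine receptors, *Drd1* had 533, 522, 540 and 535 CPM in astrocyte cohort input and 233, 197, 219 and 216 CPM in astrocyte IP. The groups did not overlap, and *Drd1* fell by 1.08 ± 0.05 (SE) on the log2 scale (edgeR adjusted p = 2.21e-09). *Drd2* had 153, 153, 150 and 150 CPM in input and 70.9, 62.8, 65.2 and 64.6 CPM in IP, and fell by 0.98 ± 0.04 (adjusted p = 1.38e-09). Mean CPM in the IP were 40.6% of the input mean for *Drd1* and 43.5% for *Drd2*.

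*Adora2a*, the adenosine A2a receptor gene, and *Gpr52*, which encodes a receptor that raises cyclic AMP in indirect pathway cells, fell the most. *Gpr52* had 73.7, 68.7, 71.8 and 65.4 CPM in input and 22.1, 18.5, 19.1 and 19.8 CPM in IP, a log2(FC) of -1.60 ± 0.06 (adjusted p = 7.39e-10). *Adora2a* had 396, 397, 424 and 398 CPM in input and 136, 110, 136 and 126 CPM in IP, a log2(FC) of -1.45 ± 0.06 (adjusted p = 2.11e-09). No IP library came near any input library. *Gpr6*, a constitutively active receptor of the indirect pathway whose promoter window holds the full CRE above, had 87.0 to 101 CPM in input and 34.3 to 45.5 CPM in IP, with a log2(FC) of -1.08 ± 0.08.

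The neuropeptide precursors fell as well. *Penk* had 1285, 1394, 1287 and 1202 CPM in input and 721, 602, 637 and 618 CPM in IP, and its log2(FC) of -0.78 ± 0.06 was the smallest of the 8 falls (adjusted p = 4.33e-07). *Tac1* had 198 to 217 CPM in input and 74.9 to 89.5 CPM in IP, a log2(FC) of -1.09 ± 0.06. *Pdyn*, the dynorphin precursor gene, had 123 to 138 CPM and 48.4 to 60.9 CPM, with a log2(FC) of -1.08 ± 0.07.

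*Isl1* and *Eya1*, the nuclear factors of the list, did not follow the other genes. *Isl1*, a homeodomain factor of direct pathway MSNs that is also known in cholinergic interneurons, had 15.7, 15.4, 19.1 and 16.2 CPM in input and 14.9, 13.3, 14.6 and 14.8 CPM in IP. These ranges did not overlap, but with TMM-scaled library sizes its log2(FC) was 0.02 ± 0.08 (adjusted p = 0.838), and with scaling by total counts, as in CPM, it was -0.20 and passed the test (adjusted p = 0.0282). *Eya1* had 10.7, 10.8, 11.2 and 9.72 CPM in input and 15.2, 12.7, 14.4 and 11.9 CPM in IP, and rose by 0.57 ± 0.09 (adjusted p = 0.000111). Its IP libraries all lay above the inputs. Of the 10 genes, CPM ranges lay apart downwards in 9 (51.4% of all genes) and upwards in 1 (25.7%).

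Scaling to ribosomal protein genes in place of TMM moved the median log2(FC) of all genes in astrocyte IP to 1.16, and *Drd1*, *Tac1*, *Pdyn*, *Drd2*, *Penk* and *Gpr6* then had values of 0.09 to 0.40, while *Adora2a* and *Gpr52* were still called lower. All 8 lay below the median of all genes under both scalings. Rescaling moves all genes by nearly the same amount, so it could hardly have changed that place.

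The neuron IP held more of 9 of the 10 genes than its input, with 35.5% of all genes called higher and 35.9% lower. With TMM-scaled library sizes *Gpr6*, *Penk* and *Tac1* rose by more than 2-fold, against 0.42% of all genes. On the CPM scale the rise was smaller, with IP means at 186.8%, 183.5% and 176.1% of the input means. With 1 library left out, the log2(FC) of *Tac1* went as low as 0.95. The median log2(FC) was 0.76 over the 10 genes and -0.002 over all genes tested. Scaling to ribosomal protein genes moved the median of all genes to 0.44 here.

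*Gpr6* had 39.7, 49.1, 32.5 and 39.7 CPM in neuron cohort input and 73.1, 88.0, 64.2 and 75.3 CPM in neuron IP, and rose by 1.10 ± 0.12 (edgeR adjusted p = 2.10e-05). *Penk* had 645, 878, 609 and 706 CPM in input and 1186, 1536, 1182 and 1304 CPM in IP, and rose by 1.08 ± 0.12 (adjusted p = 2.41e-05). *Tac1* had 101, 134, 95.3 and 125 CPM in input and 174, 232, 174 and 220 CPM in IP, and rose by 1.02 ± 0.13 (adjusted p = 4.92e-05). None of these IP groups overlapped its input, and in both groups replicate 2 was the highest and replicate 3 the lowest for all 3 genes.

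*Drd1* had 251, 316, 226 and 277 CPM in input and 386, 462, 350 and 408 CPM in IP, and rose by 0.79 ± 0.11 (adjusted p = 8.24e-05). *Drd2* had 53.3, 68.0, 54.1 and 58.4 CPM in input and 71.3, 84.1, 67.4 and 70.1 CPM in IP, and rose by 0.53 ± 0.09 (adjusted p = 0.000392). The *Drd1* groups lay apart, whereas for *Drd2* the lowest IP library lay just below the highest input library. The log2(FC) was 0.90 ± 0.13 for *Adora2a* and 0.73 ± 0.11 for *Pdyn*.

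*Isl1* rose by 0.73 ± 0.15 (adjusted p = 0.00153), from 7.86 to 10.6 CPM in input to 10.4 to 17.2 CPM in IP, with overlap. *Gpr52* rose the least, by 0.40 ± 0.14 (adjusted p = 0.0276), and did not pass the test with scaling by total counts (edgeR adjusted p = 0.249), with a filter of FPKM above 5 (0.193), with all 10 groups in the fit (0.0573) or with 1 library left out in 5 of 8 fits. *Eya1* again stood alone, with 9.46, 10.1, 10.9 and 11.9 CPM in input and 7.29, 9.58, 8.13 and 8.95 CPM in IP, and a log2(FC) of -0.12 ± 0.10 (adjusted p = 0.290). All 4 mice had less *Eya1* in IP than in input on the CPM scale, and *Eya1* fell with scaling by total counts (log2(FC) -0.32, adjusted p = 0.0161) but rose with scaling to ribosomal protein genes (0.32, adjusted p = 0.0205). CPM ranges lay apart upwards in 6 of the 10 genes (16.7% of all genes).

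The difference between the IPs was tested as the log2(FC) in the neuron cohort minus that in the astrocyte cohort. All 10 genes passed, 9 with the higher log2(FC) in the neuron cohort (35.8% of all genes) and *Eya1* with the lower (34.3%). This sets changes over input against each other and not levels. *Isl1*, for example, had a mean of 13.1 CPM in neuron IP and 14.4 in astrocyte IP. Cohort, sex and depth cannot be told apart from the cell type tagged. The difference was 2.34 ± 0.16 for *Adora2a*, 2.19 ± 0.16 for *Gpr6*, 2.11 ± 0.15 for *Tac1* and 1.99 ± 0.17 for *Gpr52*. It was 1.87 ± 0.12 for *Drd1* and 1.51 ± 0.10 for *Drd2*, and 0.71 ± 0.18 for *Isl1*. *Eya1* had a difference of -0.69 ± 0.14 (edgeR adjusted p = 0.000255). *Eya1* thus went the other way from the other 9 genes, at a low level (1.33 FPKM in neuron IP). Whether it marks MSNs was not tested, and such values cannot decide it. Markers of cholinergic interneurons also rose in astrocyte IP (median log2(FC) 2.32), but they rose in neuron IP too (1.09), where *Eya1* was at -0.12. Any link between them and *Eya1* was not tested. Scaling to ribosomal protein genes turned the difference of *Isl1* to -0.03.

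**Figure D2:**
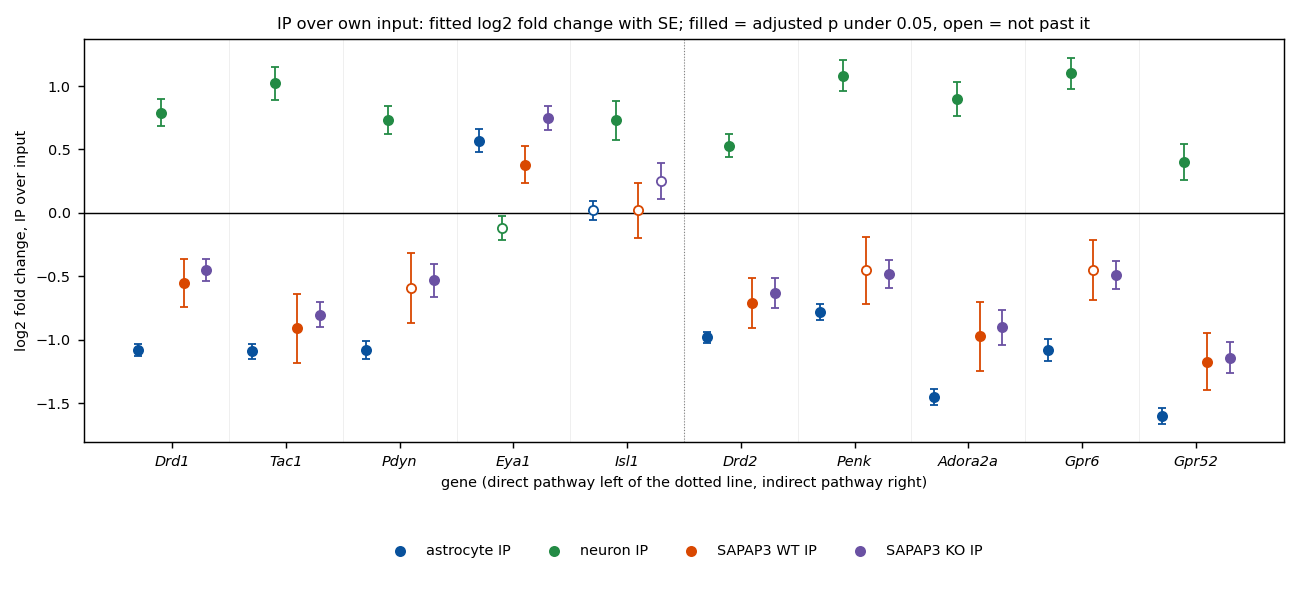
Fitted log2(FC) of IP over own input with its SE for the 10 genes (horizontal axis) in the 4 IPs, 4 IP and 4 input libraries each, where filled points passed an adjusted p of 0.05. Neuron IP lies above 0 for every gene but *Eya1* (-0.12), and the other IPs lie below 0 for every gene but *Eya1* and *Isl1* with this TMM scaling, though scaling to ribosomal protein genes turns *Drd1*, *Pdyn*, *Penk* and *Gpr6* above 0 in all 3.

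Other genes of the same cells were set beside the 10. Of 9 genes shared by both MSN classes, such as *Ppp1r1b* (DARPP-32) and *Rgs9*, all 9 fell in astrocyte IP (median log2(FC) -0.86) and 8 rose in neuron IP (0.70). With scaling to ribosomal protein genes, however, 6 rose and 1 fell in astrocyte IP. All 9 then lay below the median of all genes, a place that rescaling could hardly change. Of 6 other direct pathway genes, 4 fell and 2 rose in astrocyte IP (median -0.83; 0 and 5 with ribosomal protein scaling), and 4 rose and 1 fell in neuron IP (0.43). The pair that rose in astrocyte IP was *Zfp521* (1.22) and *Sfxn1* (0.25). Of 6 other indirect pathway genes, 4 fell and 1 rose in astrocyte IP (median -0.37; 0 and 5 with that scaling), and 3 rose in neuron IP (0.38). The one that rose in astrocyte IP was *Ttc12* (1.72), which neighbours *Drd2*. Not all neuronal transcripts were low in astrocyte IP. All 4 cholinergic interneuron markers rose there (median 2.32), from a summed 85.6 to 107 CPM in input to 393 to 420 CPM in IP. With TMM scaling, 3 of 4 GABAergic interneuron markers rose there and 1 fell (-0.83), with a median of 2.01. The cholinergic markers also rose there under both other scalings. All 5 microglial and all 5 endothelial markers fell in every IP. With TMM scaling, oligodendrocyte markers fell in astrocyte IP (3 of 5) and neuron IP (5 of 5) and rose in both SAPAP3 IPs (3 of 5 each). In astrocyte IP they lay at -1.05 to 0.17. Scaling to ribosomal protein genes moved the median of all genes there from -0.025 to 1.16, so these falls depend on the scaling. The 4 cholinergic markers also rose in the other 3 IPs, with medians of 1.09 to 2.23, and their part in the values of *Isl1* was not tested.

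In the SAPAP3 cohort, the 8 genes that fell in astrocyte IP again had values below 0 in the IPs of both genotypes with TMM scaling, although scaling to ribosomal protein genes moved 5 of them above 0 in WT and 4 in KO. In WT mice 5 genes fell and *Eya1* rose, with 34.6% of all genes called lower and 32.7% higher. In KO mice 8 fell and *Eya1* rose, with 35.9% lower and 36.1% higher. The median log2(FC) of the 10 was -0.57 in WT and -0.51 in KO. With the mouse as a block, 8 genes fell in WT as well, as *Pdyn* (-0.61, adjusted p = 2.77e-05), *Penk* (-0.45, adjusted p = 0.00103) and *Gpr6* (-0.44, adjusted p = 0.000177) then passed. Without both libraries of the WT mouse that stood apart, 7 fell. Scaling to ribosomal protein genes moved the median of all genes to 0.68 in WT and 0.60 in KO, and only 1 and 2 of the members were then called lower.

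*Gpr52* and *Adora2a* again fell the most. *Gpr52* had 70.8, 38.8, 43.0 and 42.6 CPM in WT input and 27.1, 17.3, 17.5 and 15.3 CPM in WT IP, with a log2(FC) of -1.17 ± 0.22 (edgeR adjusted p = 0.00117). In KO it had 34.6, 35.6, 36.2 and 41.8 CPM in input and 18.1, 12.4, 12.1 and 15.6 CPM in IP, with a log2(FC) of -1.14 ± 0.12 (adjusted p = 8.33e-06). *Adora2a* had a log2(FC) of -0.97 ± 0.27 in WT and -0.90 ± 0.14 in KO. The IP libraries of both genes lay below all inputs of their genotype, as did 41.0% of all genes in WT and 45.4% in KO. *Eya1* rose by 0.38 ± 0.15 in WT (adjusted p = 0.0416), a call lost with limma-voom (adjusted p = 0.0537) with scaling by total counts (0.221) and without 1 library in 5 of 8 fits, and by 0.75 ± 0.09 in KO (adjusted p = 3.54e-05). *Isl1* had a log2(FC) of 0.02 ± 0.22 in WT and 0.25 ± 0.14 in KO and passed in neither.

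The IP over input values of the genotypes were also set against each other. The KO minus WT differences of the 10 genes ranged from -0.09 to 0.32, each within 2 of its SE (0.18 to 0.32), and none was called by edgeR, DESeq2 or limma-voom, nor had any an unadjusted p under 0.05. Among all genes tested, edgeR called 0.0%, and 1.26% had an unadjusted p under 0.05. These SEs come from a fit that did not pair IP and input of a mouse, so they also hold the spread between mice. With the mouse as a block, edgeR again called 0 of all genes.

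Next, direct and indirect pathway transcripts were set against each other within each library, where scaling cancels. The log2 ratio of *Drd1* to *Drd2* CPM was 1.81 ± 0.03 (SD, n = 4) in astrocyte cohort input and 1.71 ± 0.05 in its IP, with ranges of 1.77 to 1.85 and 1.65 to 1.75 that did not overlap. It was 2.19 ± 0.09 in neuron cohort input and 2.45 ± 0.07 in its IP, ranges of 2.06 to 2.25 and 2.38 to 2.54. So relative to *Drd2*, *Drd1* was higher in neuron IP and lower in astrocyte IP than in the matching inputs. In the SAPAP3 cohort the ratio was 2.04 ± 0.08 in WT input, 2.11 ± 0.15 in KO input, 2.20 ± 0.18 in WT IP and 2.30 ± 0.28 in KO IP, all overlapping. Mouse by mouse, it was higher in IP than in input in every WT mouse. The same held in every KO mouse but replicate 1 (2.21 in input and 2.17 in IP). In bulk striatum it was 1.96 ± 0.13 in WT and 2.02 ± 0.06 in KO, also overlapping.

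The neuropeptide ratio behaved differently. The log2 ratio of *Tac1* to *Penk* was -2.64 ± 0.10 in astrocyte cohort input and -2.95 ± 0.09 in its IP, with no overlap, and -2.64 ± 0.10 and -2.70 ± 0.09 in neuron cohort input and IP, with overlap. It was -2.80 ± 0.13 in SAPAP3 WT input and -3.26 ± 0.13 in WT IP, again with no overlap. In KO it was -2.70 ± 0.19 in input and -3.01 ± 0.22 in IP, with overlap. Between libraries with the same animal or title number, *Tac1* to *Penk* was lower in IP than in input in every pair of all these groups. The ratio of *Pdyn* to *Penk* was lower in IP than in input, without overlap, in both C57/BL6NTac cohorts, from -3.29 ± 0.09 to -3.60 ± 0.11 with astrocyte IP and from -3.10 ± 0.04 to -3.45 ± 0.10 with neuron IP. In the SAPAP3 cohort it overlapped between input and IP in both genotypes, at -3.38 ± 0.09 and -3.55 ± 0.30 in WT and at -3.20 ± 0.04 and -3.27 ± 0.43 in KO.

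**Figure D3:**
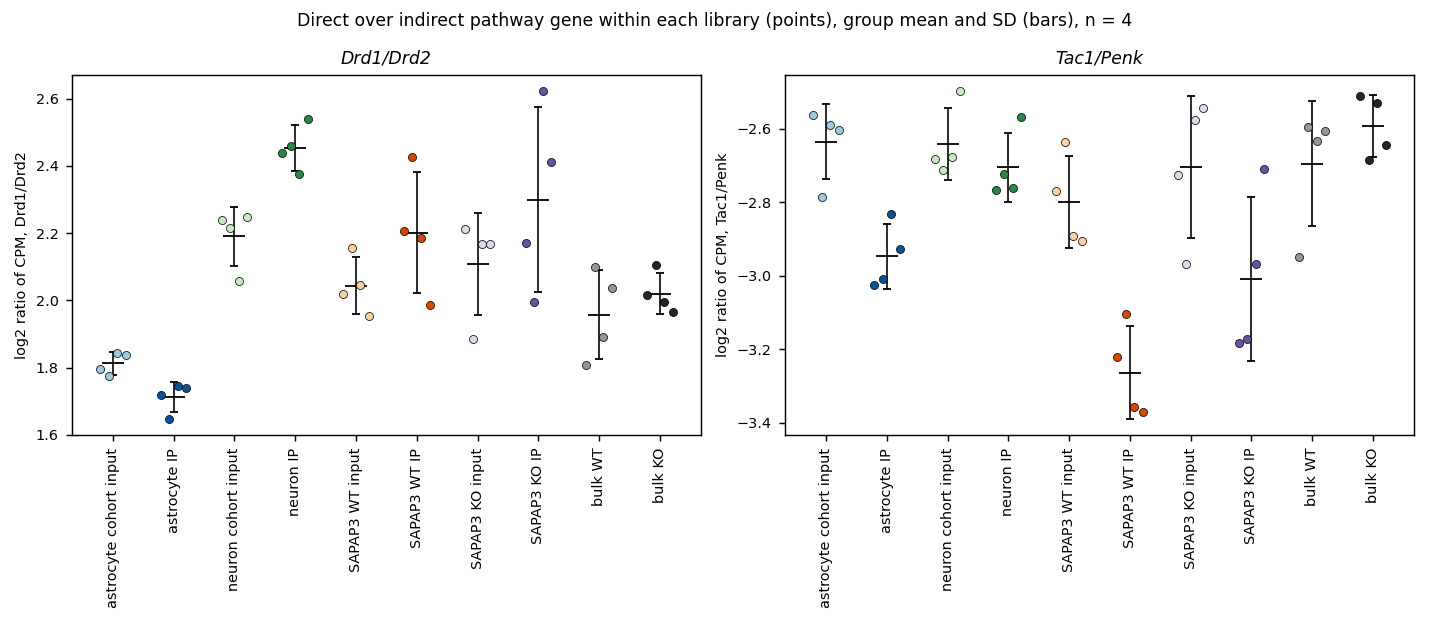
Log2 ratio of CPM of *Drd1* to *Drd2* (left) and of *Tac1* to *Penk* (right) in each library (points) of the 10 groups, with the mean and SD of 4 libraries as bars. *Drd1* to *Drd2* is highest in neuron IP (2.45) and lowest in astrocyte IP (1.71), while *Tac1* to *Penk* is lowest in SAPAP3 WT IP (-3.26).

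The genotype comparisons asked whether loss of *Dlgap3* was accompanied by a change in MSN transcripts. None of the 10 genes was called in input, IP or bulk striatum by edgeR, DESeq2 or limma-voom, which does not show that they were equal. The values were nonetheless nearly all below 0. Genes other than *Eya1* varied together between libraries (median r 0.87, described below), so the counts of genes below 0 are not independent. In input all 10 were lower in KO (50.5% of all genes), with a median log2(FC) of -0.31. In IP 9 of 10 were lower (47.5% of all genes), with a median of -0.28. In bulk striatum 9 of 10 were lower (49.5%), with a median of -0.19. Over all genes tested, edgeR called 0.00641% in input, 0.0263% in IP and 0.0% in bulk. At an unadjusted p under 0.05 there were 2 of the 10 genes in input (5.57% of all genes), 1 in IP (2.63%) and 0 in bulk (4.94%).

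*Adora2a* had the lowest values of the 10 genes in input and IP, and *Gpr52* in bulk. *Adora2a* had 368, 172, 179 and 178 CPM in WT input and 170, 155, 139 and 156 CPM in KO input, a log2(FC) of -0.49 ± 0.22 (edgeR adjusted p = 0.735). The KO libraries lay just below the WT libraries, which among all genes held for 2.62%. In IP it had 146, 85.2, 93.2 and 83.1 CPM in WT and 97.7, 66.7, 58.4 and 65.1 CPM in KO, a log2(FC) of -0.48 ± 0.20 (adjusted p = 0.999), with overlap. In bulk its log2(FC) was -0.22 ± 0.22. *Gpr52* had a log2(FC) of -0.36 ± 0.16 in input, -0.39 ± 0.18 in IP and -0.41 ± 0.24 in bulk. *Isl1* had a log2(FC) of -0.44 ± 0.18 in input, -0.25 ± 0.18 in IP and -0.17 ± 0.21 in bulk.

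The dopamine receptors and the peptide precursors were also not called. *Drd1* had a log2(FC) of -0.27 ± 0.15 in input, -0.21 ± 0.13 in IP and -0.22 ± 0.23 in bulk. *Drd2* had a log2(FC) of -0.34 ± 0.16, -0.30 ± 0.16 and -0.28 ± 0.23 in the same order. *Penk* had -0.33 ± 0.19, -0.41 ± 0.20 and -0.15 ± 0.23, and *Tac1* had -0.23 ± 0.20, -0.17 ± 0.20 and -0.08 ± 0.25. The medians were -0.23 for the direct and -0.34 for the indirect pathway genes in input, -0.17 and -0.39 in IP, and -0.14 and -0.24 in bulk, and the difference between the classes was not tested. *Eya1* in IP (0.24 ± 0.12) and *Pdyn* in bulk (0.03 ± 0.22) were the values above 0. The 9 genes shared by both classes had medians of -0.28, -0.28 and -0.21, all 9 were below 0 each time, and none was called. Their sum went with the 10 genes between libraries (median r 0.93), so these counts are not independent either.

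**Figure D4:**
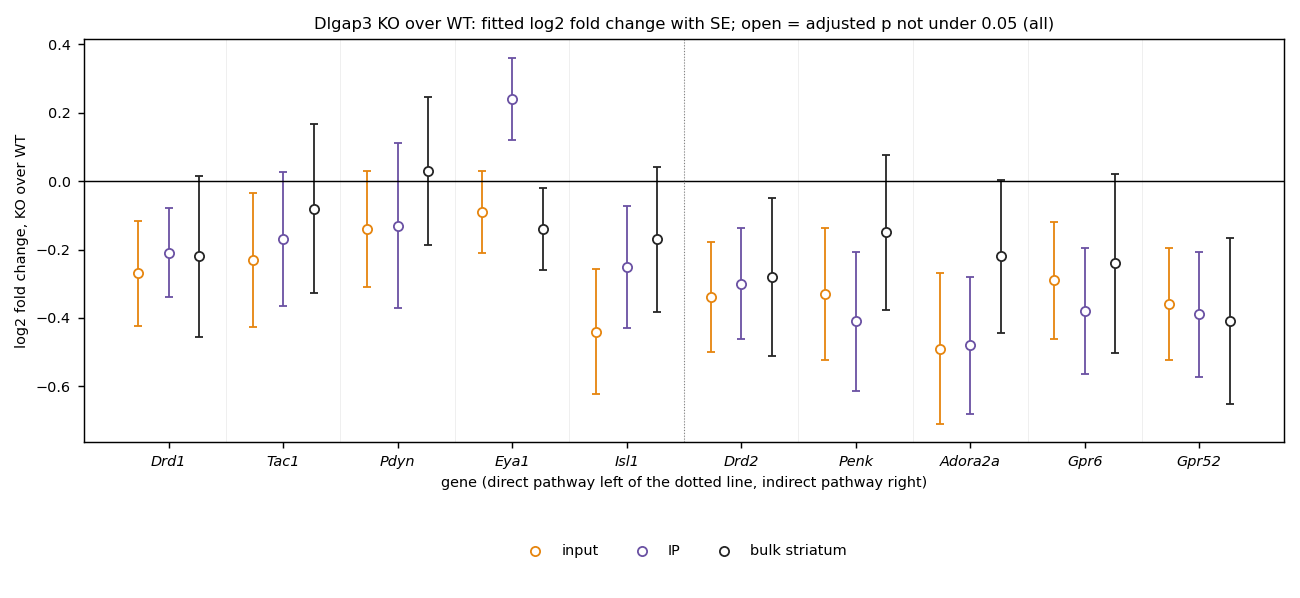
Fitted log2(FC) of KO over WT with its SE for the 10 genes (horizontal axis) in input, IP and bulk striatum, 4 libraries per genotype each. All points are open because none passed an adjusted p of 0.05, and all but *Eya1* in IP and *Pdyn* in bulk lie below 0.

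A few WT libraries bore on these values. SAPAP3 WT replicate 1 lay above the other 3 WT inputs for 9 of the genes and, over the 10, had a median deviation of 0.59 (log2) from the group mean in input and 0.51 in IP. *Tac1*, for example, had 222 CPM in that input and 114 to 125 CPM in the others. Without it the median log2(FC) of the 10 genes in input was -0.07 with 8 below 0, and *Tac1* was at 0.04 and *Pdyn* at 0.09. Without it in IP the median was -0.16 with 7 below 0, *Tac1* at 0.08 and *Pdyn* at 0.19. In bulk, WT replicates 2 and 3 had 482 and 583 CPM of *Drd1* and replicates 1 and 4 had 261 and 284, while the KO libraries lay between, at 327, 378, 316 and 386. Without WT replicate 3, the bulk library with over 1000 *Xist* counts, the median of the 10 genes in bulk was 0.02 with 4 below 0. With *Xist* as a covariate the medians were -0.26 in input, -0.21 in IP and -0.03 in bulk. Without the *Xist* libraries they were -0.36 in input and -0.41 in IP, and without the bulk pair that shares an animal number the bulk median was -0.24.

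The same libraries stood apart in markers of cortical glutamatergic neurons. The 3 markers summed to 64.6 CPM in SAPAP3 WT input replicate 1 and to 459 to 597 CPM in the other WT inputs, against 569 to 702 CPM in the KO inputs. In bulk they summed to 207 and 172 CPM in WT replicates 2 and 3 and to 831 and 668 CPM in replicates 1 and 4, against 370 to 698 CPM in KO. None of the 3 was at 0 in any group, and none was called between genotypes, with medians of 0.61 in input, 0.74 in IP and 0.06 in bulk. In these groups the WT libraries with the highest *Drd1* had the lowest cortical marker sums. The part of these markers in the genotype values was not tested.

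**Figure D5:**
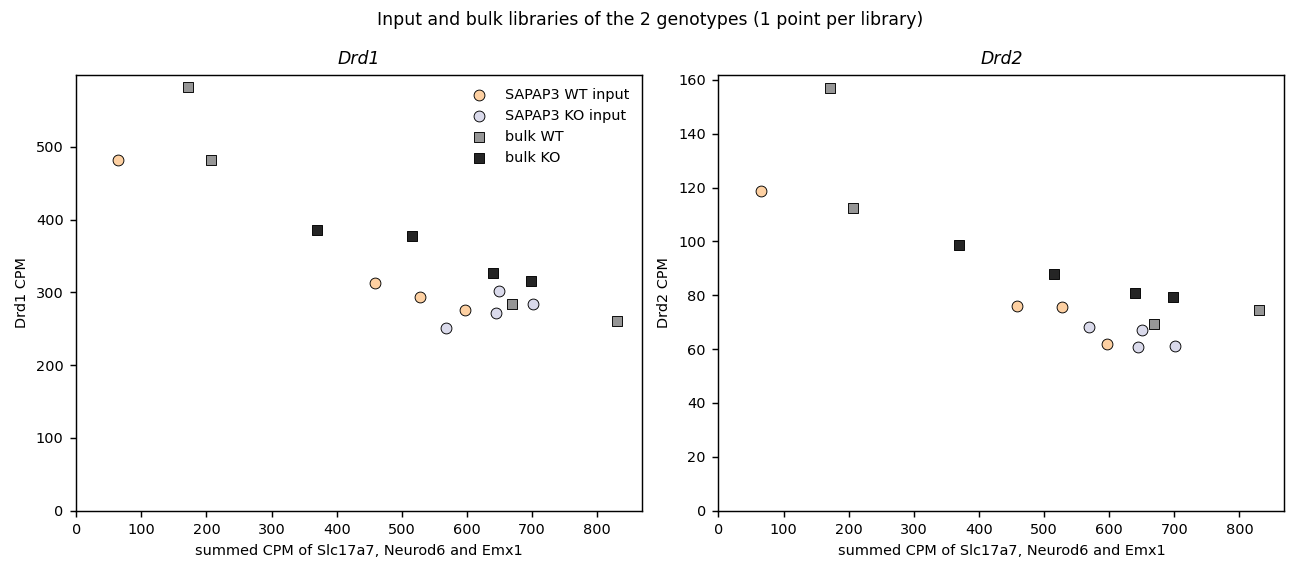
CPM of *Drd1* (left) and *Drd2* (right) against the summed CPM of 3 cortical glutamatergic markers in the 16 input and bulk libraries of the SAPAP3 genotypes (1 point each, all axes from 0). The WT libraries with the lowest marker sums (64.6, 172 and 207 CPM) have the highest *Drd1*, 482 to 583 CPM.

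Finally, the 10 genes were compared with each other across the 40 libraries, as deviations of log2(CPM + 0.5) from the mean of each library's group. These correlations are a description, since libraries of a mouse and all genes of a library are not independent. Among the 36 pairs without *Eya1*, Pearson's r had a median of 0.87 (0.68 to 0.96), and that of *Drd1* with *Tac1* was 0.96. With *Eya1* included, the 10 pairs within the indirect pathway had a median of 0.91, the 10 within the direct pathway 0.76 (-0.02 to 0.96) and the 25 between the pathways 0.79 (0.10 to 0.95). In the 9 pairs with *Eya1* the median was 0.16 (-0.02 to 0.28). Against the summed 9 genes of both MSN classes the median r of the members was 0.93, and against the cortical markers it was -0.75. Other summed markers were also negative, with -0.67 for astrocyte, -0.60 for pan-neuronal and -0.34 for GABAergic interneuron markers. The median was 0.72 for cholinergic interneuron, 0.29 for microglial, 0.16 for endothelial and 0.06 for oligodendrocyte markers. Apart from *Eya1*, transcripts of both pathways thus tended to go up and down together from library to library. The largest deviations, as medians over the 10 genes, were in WT libraries. They were 0.59 and 0.51 in input and IP of SAPAP3 WT replicate 1 and -0.46 to 0.60 in bulk WT. In astrocyte cohort input they were only -0.05 to 0.03, so a few libraries weigh heavily in these correlations.

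Over the 10 group means, the non-member genes whose level was most like that of *Drd1* among 11758 genes were *Calb1* (r = 0.986), *Rasd2*, *Itgb1bp1*, *Adcy5* and *Fbxo32* (0.983). Those most like *Drd2* were *Nrsn2* (0.983), *Hnrnpab*, *Ppp1r7*, *Bcr* and *Rarb* (0.968). *Adcy5*, an adenylyl cyclase, is known for high expression in MSNs of both classes. Among the members, r with *Drd1* was 0.972 for *Tac1* and for *Penk*, 0.930 for *Drd2*, 0.546 for *Isl1* and -0.653 for *Eya1*. With *Drd2*, r was highest for *Drd1* (0.930), then 0.909 for *Gpr6* and *Gpr52*, 0.8835 for *Adora2a*, 0.875 for *Tac1* and 0.868 for *Penk*. It was 0.844 for *Pdyn*, 0.668 for *Isl1* and -0.416 for *Eya1*. These values did not sort the members by pathway.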

How the data were processed

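RNA was measured in 40 striatal libraries of mice, 4 per group. Per the labels, reads were handled with STAR, HTSeq and the build mm10, with no versions given. The authors deposited raw counts per gene symbol for 24060 rows, of which 2 symbols are listed more than once. The annotation, strand setting and treatment of reads with several alignments are not given in the sources used here, so counts of overlapping or near-identical genes are uncertain. The labels and the study's methods name different library kits and sequencers. All 40 columns were used.

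CPM were computed from total counts, and FPKM with merged exon lengths of GRCm38.p6 (found for 99.1% of symbols). Tests used edgeR 4.0.16 in R 4.3.3 (filterByExpr, TMM, quasi-likelihood test, only the groups compared in a fit, Benjamini-Hochberg adjustment over all genes), with calls made under an adjusted p of 0.05. Alternatives were DESeq2 1.42.0, limma-voom (limma 3.58.1), scaling by total counts or to 82 ribosomal protein genes, no filter, FPKM above 5 in at least 4 libraries, all 10 groups in a fit, *Xist* as a covariate, the mouse as a block and leaving out each library. Leaving out both libraries of a WT mouse, the libraries with over 1000 *Xist* counts or the bulk pair with a shared animal number was chosen after seeing the data, as were the other scalings of the gene lists. The scripts were tested on simulated data. Depth was 23438112 to 84109800 counts. P-values measure the spread between these libraries.

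IP and input of a mouse share an animal number in the labels (in the neuron cohort only a number in the title, where the animal numbers differ), and the deviations of same-numbered libraries from their group means correlated with a mean r of 0.45, 0.65, 0.61 and 0.52 in the astrocyte, neuron, WT and KO groups, against -0.15 to -0.20 for other pairs.

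The 10 genes and all lists were chosen with earlier results of these data known. Some items are not reported here and were left out of the lists and of the genes compared with *Drd1* and *Drd2*. Named beyond the 10 genes are the 5 genes most like *Drd1* and most like *Drd2* with a mean of at least 5 CPM, *Dlgap3* and *Xist*, and examples from the lists and markers, chosen after their values were seen. Figures were drawn with matplotlib 3.10.9.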

Additional observations from a re-analysis of the deposited data

Results flagged for a closer look

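The highest or lowest library stood far from the other 3 of its group (Dixon's test, 95% level) in 10 of 130 sets of 4 values. Chance gives about 1 in 20 for independent sets. These sets share genes, libraries and mice, so their count cannot be held against that rate. In input of the SAPAP3 WT mice, replicate 1 stood high for *Tac1* (221.9 CPM), *Pdyn* (140.6 CPM), *Adora2a* (367.5 CPM) and *Gpr52* (70.82 CPM). The IP of the same mouse stood high for *Pdyn* (90.8 CPM) and *Adora2a* (145.6 CPM). *Adora2a* also stood high in astrocyte cohort input replicate 3 (423.9 CPM). The log2 ratio of *Drd1* to *Drd2* stood low in SAPAP3 KO input replicate 2 (1.88). That of *Tac1* to *Penk* stood high in neuron cohort input replicate 4 (-2.50) and low in bulk WT replicate 1 (-2.95).

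The log2(FC) of IP over input differed between the neuron and the astrocyte cohort for all 10 genes by an interaction term. Neuron minus astrocyte, the difference was 1.87 for *Drd1*, 2.11 for *Tac1*, 1.82 for *Pdyn*, 0.71 for *Isl1* and -0.69 for *Eya1*. It was 1.51 for *Drd2*, 1.86 for *Penk*, 2.34 for *Adora2a*, 2.19 for *Gpr6* and 1.99 for *Gpr52*. The cohorts also differed in sex and depth, which cannot be told apart from the cell type tagged.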

How the results depend on the processing

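DESeq2 and the fit with no filter left the direction and the call of all 80 fitted values as they were. Scaling to ribosomal protein genes changed the most. In astrocyte IP it called 4 genes higher and 2 lower, with *Drd1* at 0.10, *Tac1* at 0.09, *Pdyn* at 0.10, *Drd2* at 0.20, *Penk* at 0.40 and *Gpr6* at 0.10. In SAPAP3 WT IP it called 2 higher and 1 lower, with *Drd1* at 0.18, *Pdyn* at 0.15, *Drd2* at 0.03, *Penk* at 0.29 and *Gpr6* at 0.29. In KO IP it called 2 higher and 2 lower, with *Drd1* at 0.15, *Pdyn* at 0.06, *Penk* at 0.12 and *Gpr6* at 0.10. *Eya1* in neuron IP went to 0.32 and the neuron minus astrocyte difference of *Isl1* to -0.03. It moved the median of all genes to 1.159 in astrocyte IP, 0.438 in neuron IP, 0.678 in WT IP and 0.595 in KO IP, and calls among all genes from 6071 higher and 6377 lower to 13089 and 1118 in astrocyte IP, from 5744 and 5813 to 9687 and 3161 in neuron IP, from 5101 and 5395 to 10555 and 1461 in WT IP, from 5620 and 5591 to 10399 and 1821 in KO IP, and from 5856 and 5613 to 1119 and 11402 for the neuron minus astrocyte difference.

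Scaling by total counts called *Eya1* lower in neuron IP, which made 1 lower call, called 0 genes higher in WT IP, and put *Isl1* at -0.20 in astrocyte and -0.15 in WT IP. It gave 4352 higher and 8377 lower among all genes in astrocyte IP, 3026 and 8002 in neuron IP, 3692 and 7095 in WT IP and 3961 and 7512 in KO IP. The FPKM filter removed *Eya1* from the test, so 0 genes were called higher in astrocyte, WT and KO IP and 0 lower for the difference between cohorts, and *Isl1* was at -0.04 in astrocyte and WT IP. limma-voom called 0 higher in WT IP and put *Tac1* in bulk KO at 0.01. With *Xist* as a covariate, *Tac1* was at 0.08 and *Pdyn* at 0.07 in IP of KO over WT, and *Tac1* at 0.10, *Penk* at 0.01 and *Gpr6* at 0.01 in bulk. Without the bulk pair that shares an animal number, chosen after the data were seen, *Pdyn* was at -0.16. The cause of these shifts was not tested.

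With the mouse as a replicate block, 8 genes were called lower in WT IP, and no other call on the 10 genes changed. With 1 library left out, 0 to 1 genes were called higher and 4 to 8 lower in WT IP (8 without IP replicate 1), 1 to 2 higher in KO IP and 8 to 9 higher in neuron IP. *Isl1* ranged from -0.01 to 0.11 in astrocyte and from -0.11 to 0.21 in WT IP. For KO over WT, *Tac1* ranged from -0.33 to 0.04 in input, -0.32 to 0.08 in IP and -0.24 to 0.17 in bulk, and *Pdyn* from -0.25 to 0.09, -0.24 to 0.19 and -0.11 to 0.20. In bulk, *Drd1* ranged from -0.37 to 0.03, *Drd2* from -0.43 to 0.00, *Penk* from -0.31 to 0.07 and *Gpr6* from -0.41 to 0.07. For all genes, DESeq2 called 12 higher and 5 lower in bulk KO, 3 and 5 in input and 2 and 6 in IP, against 0 and 0, 0 and 1, and 1 and 3 by edgeR. Fitting all 10 groups together called 7 and 11 in bulk, 2 and 6 in input and 1 and 5 in IP. With 1 library left out, *Gpr52* in neuron IP and *Eya1* in WT IP each lost their call in 5 of 8 fits, and *Drd1* in WT IP in 2 of 8.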
